A study of Mus musculus with 10 samples.

Results

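Chemokine ligands and receptors were followed in mouse oviducts with and without a working progesterone receptor. The set held every gene whose platform symbol begins with Ccl, Cxcl, Xcl, Cx3cl, Ccr or Cxcr followed by a digit, together with Ackr1 to Ackr4, Cx3cr1 and Xcr1. It came to 56 of 19938 named genes, made up of 34 ligands, 18 signalling receptors and 4 atypical receptors. Each gene was read through a probe set annotated to it alone, and where there were several, the brightest over the 10 arrays was used. That choice arose for Ccl19 (5 probe sets) and Ccl25 (2 probe sets) only. A further 7 rows, annotated to several Ccl21 or Ccl27 copies at once, were kept out of the set.

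Whole oviducts came from prepubertal mice 21 to 23 days old that received 5 IU of equine chorionic gonadotropin (eCG), which drives follicle growth, and 44 to 47 h later 5 IU of the human hormone (hCG), given to bring on ovulation. Tissue was taken 8 h after hCG. The 5 PRKO samples were homozygous for the PRlacZ allele, a germline lacZ insertion that stops both isoforms of the receptor, and the 5 PR+/- samples were heterozygous for the same allele and are fertile. Each sample pooled the oviducts of 3 animals, so 15 animals stood behind each genotype, every animal carried at least 1 lacZ allele, and no wild-type or unprimed group is part of the comparison. The strain background is not given in the sources used here. Values are log2 signals of Affymetrix whole-transcript probe sets. The signal of a probe set depends on its own probes, so levels were compared between arrays and not between genes.

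Chemokines are small secreted proteins, a few of them anchored to the cell surface, that guide leukocytes along concentration gradients. They are classed by the spacing of their leading cysteines as CC, CXC, CX3C or XC ligands, and they act through G protein-coupled receptors that signal mainly through inhibitory G proteins. Atypical receptors bind chemokines without this signal and clear or transport them. In the female reproductive tract, resident macrophages and lymphocytes, epithelium and stroma all make chemokines.

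The arrays of both genotypes had a like median signal over genes, while signals were spread over a narrower range in most PRKO arrays. Their interquartile range, the middle span of an array's genes, lay between 3.20 and 3.37 in PR+/- and between 2.93 and 3.26 in PRKO. With it, dim genes lay higher in PRKO and bright genes lower, and across all genes the Spearman correlation of mean signal with the PRKO minus PR+/- difference was -0.44, a description over genes that share the same 10 arrays. Pgr, the targeted gene, fell from a mean signal of 7.42 ± 0.11 in PR+/- pools to 6.36 ± 0.037 in PRKO pools (SD, 5 pools each), with no overlap between the genotypes. Oviduct epithelial markers were clear on every array, with mean signals of Epcam, Pax8 and Foxj1 between 7.05 and 8.97 in either genotype. A list of 7 ovarian genes stood high on PR+/- replicate 4 (mean signal 4.72) and PRKO replicate 3 (4.76). In whole tissue, fewer cells of a type and less RNA per cell cannot be told apart.

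Of the 56 chemokine genes, 4 ligands passed the test between genotypes and no receptor did. Cxcl16, a membrane-anchored chemokine that also takes up oxidised lipid, Ccl9, a CC chemokine of myeloid cells, and Cxcl17, a mucosal chemokine, rose in PRKO, while Ccl6, a macrophage chemokine, fell. The changes were modest, from 1.31-fold to 1.46-fold. Calls required an adjusted p below 0.05 (limma, Benjamini-Hochberg over all 19938 genes), a rule met by 4.96% of all genes, 1.09% upward and 3.87% downward. Among the members 7.14% were called, a share close to that background. By direction, 5.36% were called higher and 1.79% lower. The 2 genotypes did not overlap in 5 members, 4 higher (Cxcl16, Ccl9, Cxcl17 and Ccr7) and 1 lower (Ccl6), or 8.93%, where 7.2% of all genes did not overlap, 2.15% of all genes higher and 5.06% lower. At an unadjusted p under 0.05, 16 members were higher and 4 lower (35.7% in all), against 21.1% of all genes, 10.1% higher and 11.1% lower.

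Cxcl16 encodes a transmembrane chemokine that is shed by proteases and attracts lymphocytes through Cxcr6. Its log2 signal was 5.60, 5.58, 5.51, 5.75 and 5.45 in PR+/- replicates 1 to 5. In PRKO replicates 1 to 5 it was 6.08, 6.07, 6.31, 6.05 and 5.93. Every PRKO pool was above every PR+/- pool. The log2 difference was 0.51 ± 0.085 (SE, n = 5 against 5), which is 1.42-fold, at an adjusted p of 0.00263. The call was kept in all 22 alternative analyses, with differences from 0.45 to 0.56.

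Ccl9, also known as a chemokine of the macrophage inflammatory protein family that acts on Ccr1, gave values of 5.32, 5.21, 5.57, 5.67 and 5.41 in PR+/- replicates 1 to 5. The PRKO values were 6.08, 5.73, 6.07, 5.88 and 6.15. The groups did not overlap, though PRKO replicate 2 lay only just above PR+/- replicate 4. The difference was 0.55 ± 0.11, or 1.46-fold (adjusted p = 0.00742). With the interquartile range of the arrays as a covariate it was 0.34 and not called (adjusted p = 0.198), and without both PRKO replicates 1 and 5 it was 0.46 (adjusted p = 0.0529).

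Ccl6 is a close relative of Ccl9 that is made by macrophages and other myeloid cells, and it moved the opposite way. It had values of 6.89, 6.82, 6.82, 6.98 and 6.75 in PR+/- replicates 1 to 5. In PRKO the values were 6.52, 6.26, 6.49, 6.42 and 6.33, all below every PR+/- pool. It fell by 0.45 ± 0.077 on the log2 scale, 1.37-fold (adjusted p = 0.00317), and was called in all 22 alternatives with differences from -0.48 to -0.41.

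Cxcl17 is a chemokine of mucosal epithelia associated with macrophage recruitment. Its signals were 5.70, 5.62, 5.83, 5.79 and 5.85 in PR+/- replicates 1 to 5 and 6.45, 6.25, 6.04, 6.08 and 5.90 in PRKO replicates 1 to 5. The groups did not overlap, but PRKO replicate 5 lay only just above PR+/- replicate 5. The difference was 0.39 ± 0.099, or 1.31-fold, and its adjusted p of 0.0374 was near the threshold. It kept its call in 10 of 22 alternatives (adjusted p 0.0135 to 0.177). Leaving out any single PR+/- array ended the call (adjusted p 0.0574 to 0.106), as did leaving out PRKO replicate 1 (0.0583), 2 (0.0643) or 3 (0.05003). It was also lost with median centring (0.0651), with the replicate number as a block (0.0712) and with the interquartile range as a covariate (0.177).

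**Figure D1:**
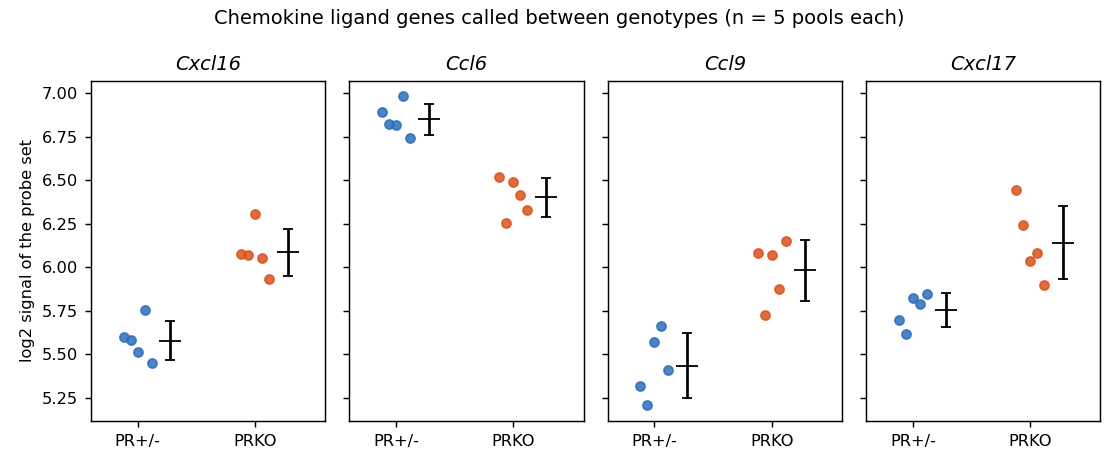
Log2 signal (y axis) of the 4 called chemokine ligands in 5 PR+/- and 5 PRKO pools; each point is an array, and the bar beside the points is the mean with its SD. Cxcl16, Ccl9 and Cxcl17 lie higher in PRKO and Ccl6 lower, with no overlap between genotypes in any of the 4 panels.

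Ccl9 and Ccl6 sit beside each other in the macrophage inflammatory protein cluster of mouse chromosome 11, with 1 gene of the reference between them, which does not code for protein. Their upstream sequences are shown because these neighbours of like origin moved in opposite directions. Each is the 250 bases before the annotated start in RefSeq (GRCm38.p6), 5′ to 3′ on the minus strand, at chr11:83593088-83593337 for Ccl6 and chr11:83578637-83578886 for Ccl9. Capitals mark runs of at least 9 bases found in both sequences.
Ccl6: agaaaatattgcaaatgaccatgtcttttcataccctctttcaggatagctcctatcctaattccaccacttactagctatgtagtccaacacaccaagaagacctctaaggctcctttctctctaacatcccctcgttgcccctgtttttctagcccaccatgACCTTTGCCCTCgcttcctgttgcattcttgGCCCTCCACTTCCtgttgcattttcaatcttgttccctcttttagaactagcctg
Ccl9: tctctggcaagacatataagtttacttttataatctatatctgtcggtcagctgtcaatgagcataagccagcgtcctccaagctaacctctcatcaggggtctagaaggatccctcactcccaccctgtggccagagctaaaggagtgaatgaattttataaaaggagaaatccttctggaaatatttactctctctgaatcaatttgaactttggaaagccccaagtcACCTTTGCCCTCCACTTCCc

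The 2 shared runs are ACCTTTGCCCTC and GCCCTCCACTTCC. In Ccl6 they begin 86 and 55 bases before the start, and in Ccl9 they overlap and begin 20 and 14 bases before it. A TATA motif (TATAAA, either strand) was matched in Ccl9 at 92 and, overlapping on the other strand, at 94 bases before the start, and once more at 224, and was not matched in Ccl6. It was present in 12.4% of 32851 promoters of the same length. A loose AP-1 pattern with any base in the middle (TGANTCA, the same on both strands) was present in 6.75% of all promoters. It was matched in Ccl9, by the letters TGAATCA at 53 bases before the start, and not in Ccl6. The ETS core GGAAGT was matched on the other strand in each, inside the shared run, and in 19.7% of all promoters. The core shared by progesterone and glucocorticoid receptor elements (AGAACA, either strand, 16.1% of promoters) was matched in neither, nor was the NF-kB motif, searched as a 10-base consensus with 1 free position on either strand (0.356%). These matches describe letters only. The NF-kB motif was matched in 4 of the 44 promoters of members, those of Cxcl1, Cxcl2, Cxcl3 and Ccr3. Among the same 44, the TATA motif was matched in 14, the ETS core in 16, the AGAACA core in 7 and the AP-1 pattern in 4. The table held promoters of 42 members, and Cxcl16 and Cxcl17 were not among them.

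The remaining ligands grouped with the macrophage inflammatory proteins did not pass. Ccl5, which attracts T cells, had a log2 difference of 0.17 (95% interval -0.032 to 0.37), Ccl3 one of 0.29 (-0.12 to 0.70) and Ccl4 one of 0.02 (-0.20 to 0.25). The Ccl3 interval was wide, and its pools ranged from 3.89 to 4.61 in PR+/- and from 4.04 to 5.16 in PRKO. Ccr1, the receptor through which Ccl6 and Ccl9 act, was dim, at 2.96 ± 0.12 in PR+/- pools and 3.00 ± 0.052 in PRKO pools (SD). Its difference of 0.03 had an interval of -0.13 to 0.19 and turned slightly negative in 3 of 20 alternatives. Cxcr6, the receptor of Cxcl16, was also dim, at 3.03 ± 0.21 and 3.38 ± 0.32, with a difference of 0.35 (adjusted p = 0.179) and overlapping groups.

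Monocyte chemoattractants and eotaxins, which act mainly on Ccr2 and Ccr3, were grouped with Ccl1, a ligand of Ccr8. None of these 8 passed in limma (unadjusted p under 0.05 in 4 upward and 1 downward). Nearest to the threshold was Ccl11, eotaxin, which draws eosinophils. Its values were 5.47, 5.58, 5.51, 5.65 and 5.75 in PR+/- replicates 1 to 5 and 5.69, 5.96, 6.17, 5.82 and 6.09 in PRKO replicates 1 to 5. Only PRKO replicate 1 fell within the PR+/- span. The difference was 0.36 ± 0.098 (adjusted p = 0.0526). It was called in 8 of 22 alternatives, among them removal of the dimmest 30% of genes (adjusted p = 0.0334), and its adjusted p spanned 0.0185 to 0.430.

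Ccl12, a mouse monocyte chemoattractant, pointed downward at -0.31 ± 0.11 (adjusted p = 0.113). Its values were 4.36, 4.42, 4.58, 4.58 and 4.41 in PR+/- and 4.10, 3.89, 4.03, 4.27 and 4.51 in PRKO, where replicate 5 stood with the PR+/- pools. Without that array the difference was -0.40 and was called (adjusted p = 0.0251). It was called in 5 of 21 alternatives, among them quantile (0.0370) and cyclic loess normalization (0.0345), which gave 3 members higher and 2 lower in place of 3 and 1. Ccl2, the main ligand of Ccr2, had a difference of 0.18 (interval -0.11 to 0.46) and Ccl7 one of 0.30 (0.012 to 0.59, adjusted p = 0.219). Of the others, Ccl24 lay at 0.23 (adjusted p = 0.119), Ccl26 at 0.12, Ccl8 at -0.01 and Ccl1 at 0.38 (adjusted p = 0.0895).

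Ligands of the CXC class that act on neutrophils through Cxcr2 gave no call among 5 (unadjusted limma p under 0.05 in 0 upward and 1 downward). Cxcl1 had a difference of -0.06 (interval -0.24 to 0.13), Cxcl3 of -0.02 and Cxcl5 of 0.16, and Cxcl2 of 0.21, with PRKO replicate 1 at 4.19 against 2.97 to 3.28 on the other 4 PRKO arrays. Cxcl15, described as a lung chemokine, pointed downward at -0.36 ± 0.12 (adjusted p = 0.0989) with overlapping groups. The ligands of Cxcr3, which are induced by interferon and attract activated T cells, had differences of 0.40 for Cxcl9 (adjusted p = 0.135), 0.44 for Cxcl10 (0.370) and 0.10 for Cxcl11 (0.552). For Cxcl10 that estimate rests on PRKO replicate 5, at 6.37. The other 4 PRKO arrays lay between 4.55 and 4.78, and the PR+/- arrays between 4.38 and 4.87. The difference was 0.10 without that array and -0.24 with the interquartile range as a covariate.

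Other ligands, several of them with steady roles in tissue homing, gave no call in limma (unadjusted p under 0.05 in 3 upward, Cxcl12, Ccl22 and Xcl1, and 1 downward, Ccl28). Cxcl14, an epithelial and stromal chemokine, had a signal of 7.62 ± 0.23 (SD) in PR+/- pools and 7.58 ± 0.065 in PRKO pools, a difference of -0.04 with an interval of -0.25 to 0.18, whose sign turned in 4 of 22 alternatives. Cxcl12, which retains cells through Cxcr4, was 6.08, 6.06, 6.27, 6.11 and 5.94 in PR+/- replicates 1 to 5 and 6.41, 6.48, 6.25, 6.25 and 6.13 in PRKO replicates 1 to 5. Its groups overlapped, and the difference of 0.21 ± 0.087 did not pass (adjusted p = 0.184). Ccl28, a mucosal chemokine that attracts antibody-secreting cells through Ccr10, varied widely in PR+/- (6.31, 7.202, 6.75, 6.99 and 6.66) and less in PRKO (6.71, 6.27, 6.23, 6.45 and 6.54). Its difference of -0.34 did not pass (adjusted p = 0.197). Cx3cl1, the membrane-anchored fractalkine, had a difference of 0.19 (interval -0.094 to 0.47). Ccl25, Ccl19 and Ccl20, which act on Ccr9, Ccr7 and Ccr6, had differences of 0.08, 0.14 and -0.02. The other probe sets of Ccl19 gave 0.15 each, and that of Ccl25 gave -0.13, against 0.08 for the brighter one. Some of these Ccl19 probe sets had the same mean signal, difference and SE, so they are not all separate measurements. Among dim ligands, Ccl22 had a difference of 0.29, Ccl17 of 0.01, Cxcl13 of 0.17 and Xcl1 of 0.28, with none called.

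Receptors gave no call. Of 18 signalling receptors 15 had a positive difference, and 5 of them, Ccr3, Ccr7, Cxcr5, Ccr1l1 and Cxcr6, had an unadjusted limma p under 0.05 and no receptor did so downward. The positive share was 83.3%, against 56.1% of all genes, and 27.8% were higher at the unadjusted p, against 10.1% of all genes. With atypical receptors included, 73.3% of 15 dim ones (mean signal below 4.53) were positive, against 83.3% of all dim genes. Between 4.53 and 6.67, 83.3% of 6 were positive, against 47.4% of all genes there. At the unadjusted p, 26.7% and 16.7% of these classes were higher, against 17.3% and 8.03% of all their genes. Ccr3, the eotaxin receptor, had a difference of 0.29, Cxcr5, the receptor of Cxcl13, of 0.34, and Ccr1l1, a Ccr1-like receptor, of 0.36, all on dim probe sets. Ccr3 was called without PRKO replicate 2 (adjusted p = 0.0406) and Cxcr5 without PR+/- replicate 3 (0.0318). Ccr7, which leads dendritic and T cells to lymph nodes, was the only receptor without overlap between groups. Its values were 4.39, 4.23, 4.52, 4.63 and 4.58 in PR+/- replicates 1 to 5 and 4.74, 4.65, 4.68, 4.97 and 5.48 in PRKO replicates 1 to 5. The difference was 0.43 ± 0.14 (adjusted p = 0.09999), and PRKO replicate 5 lay farthest from the rest. With the replicate number as a block, Ccr7 (adjusted p = 0.0438) and Cxcr5 (0.0365) were called.

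Cxcr4, the receptor of Cxcl12 and the brightest receptor probe set, was 8.11, 7.67, 7.93, 8.37 and 7.82 in PR+/- replicates 1 to 5 and 8.20, 8.24, 8.38, 8.17 and 8.05 in PRKO replicates 1 to 5. The groups overlapped, and the difference of 0.23 had an interval of -0.022 to 0.48. Cx3cr1, which marks resident macrophages and monocytes, had a difference of 0.05 (-0.21 to 0.30). Ccr2, the receptor of inflammatory monocytes, was more variable, at 4.91 ± 0.21 (SD) in PR+/- and 5.27 ± 0.55 in PRKO, with 5.99 on PRKO replicate 5 and 4.62 on PRKO replicate 1. Ccr10, the receptor of Ccl28, had a difference of 0.07 (-0.22 to 0.35), whose sign turned in 3 of 21 alternatives. The receptors Cxcr1, Cxcr2 and Cxcr3 had differences of 0.03, -0.07 and -0.01. Those of the lymphocyte receptors Ccr6, Ccr8 and Ccr9 were 0.25, -0.14 and 0.20, and that of Xcr1, which marks a class of dendritic cells, was 0.15.

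Of the 4 atypical receptors none was called in limma, and 0 had an unadjusted p under 0.05. Ackr3, which scavenges Cxcl12, had a difference of -0.07 (interval -0.23 to 0.086), Ackr4, which takes up Ccl19 and Ccl25, of 0.03 (-0.19 to 0.25), Ackr2, a scavenger of inflammatory CC chemokines, of -0.12 (-0.31 to 0.081), and Ackr1, which carries chemokines across venular endothelium, of 0.08 (-0.12 to 0.27). None of the 4 intervals reaches a change of 1.5-fold, and over the whole set the interval lay within 1.5-fold either way for 39 of 56 members.

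**Figure D2:**
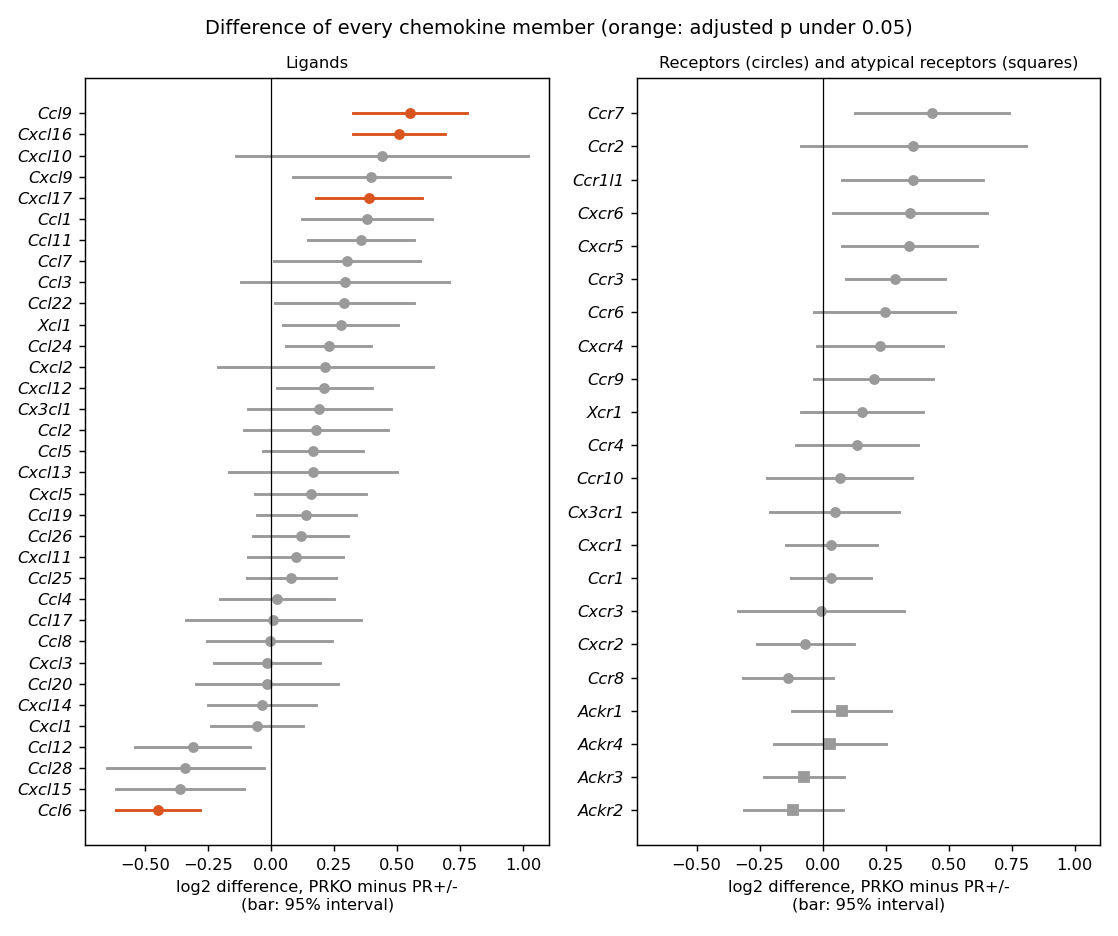
Log2 difference, PRKO minus PR+/- (x axis), of all 56 chemokine genes, with ligands on the left and receptors (circles) and atypical receptors (squares) on the right; bars are 95% intervals and orange marks an adjusted p under 0.05. Ccl9, Cxcl16 and Cxcl17 are the ligands called above 0 and Ccl6 the ligand called below it, and no receptor is called.

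Changes were then set against signal level, since dim probe sets lie near background and an array understates their fold change. All named genes were divided by mean signal into dim, middle and bright classes of 6646 genes each, with borders at 4.53 and 6.67. Of the members, 31 were dim, 23 middle and 2 bright (Cxcl14 and Cxcr4). All 4 calls lay in the middle class, where 17.4% of members were called against 5.37% of all genes of that class. Neither bright member was called, against 7.73% of all bright genes. In the dim class 0 of 31 members were called in limma, with 9 higher and 1 lower at an unadjusted p under 0.05, and 1.76% of all dim genes were called. The 4 called probe sets had mean signals between 5.71 and 6.63.

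The members' differences leaned upward. The difference was positive for 42 of 56 (75.0%), against 56.1% of all genes, and the median was 0.15 against 0.03. In the dim class this lean was shared with other genes: 74.2% of members and 83.3% of all dim genes had a positive difference, with medians of 0.14 and 0.12. In the middle class, 78.3% of members and 47.4% of all genes were positive, with medians of 0.18 and -0.01. The median over all members was 0.08 after quantile normalization, 0.07 after cyclic loess normalization and 0.06 with the interquartile range as a covariate. It was 0.10 without PRKO replicate 5 and 0.05 without both PRKO replicates 1 and 5. No test was made of these shares, and genes of the set share arrays and cell sources. Over the 56 members, the size of the difference correlated weakly with mean signal, with a Pearson r of 0.20 and a Spearman rho of 0.20, as a description. By class, its median was 0.15 in dim and 0.29 in middle members, against 0.13 and 0.11 for all genes of those classes. Over the 2 bright members it was 0.13, against 0.10 for all bright genes.

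As a guide to background, 1027 olfactory receptor genes, which are rarely transcribed outside the nose, had a median mean signal of 2.72 and a 95th percentile of 4.15. This guide was chosen after the values had been seen. Above that percentile lay 27 of the 56 members, 20 of them ligands and 7 receptors or atypical receptors, and all 4 called genes. The olfactory genes themselves had a median difference of 0.13, and 89.5% of them were positive. Differences of that size in dim members, such as Ccr4 (0.14) and Ccl26 (0.12), lay near the median of these olfactory genes.

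**Figure D3:**
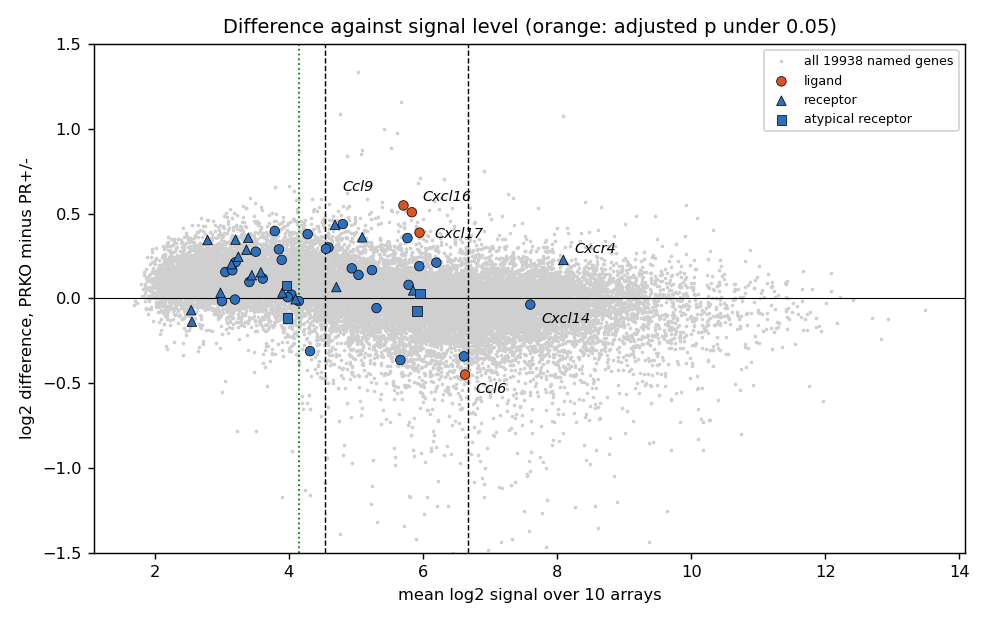
Log2 difference, PRKO minus PR+/- (y axis, cut at 1.5 either way), against mean log2 signal over the 10 arrays (x axis) for all 19938 genes (grey) and the 56 members (circles ligands, triangles receptors, squares atypical receptors; orange where called). Dashed lines at 4.53 and 6.67 bound the signal classes and the dotted line at 4.15 is the 95th percentile of olfactory receptor genes; the 4 called members lie between the dashed lines.

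Across arrays, the share of members above their own mean over the 10 arrays ran from 19.6% to 51.8% in PR+/- and from 39.3% to 75.0% in PRKO, so the genotypes overlapped. PRKO replicate 1 had the highest share and PRKO replicate 4 the lowest of its group. PRKO replicate 5 held the highest values of Cxcl10, Ccr7 and Ccr2, and it is also the array with the narrowest spread of signal. The SD over pools was larger in PRKO for 42 of 56 members, near the 74.7% of all genes for which this held.

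**Figure D4:**
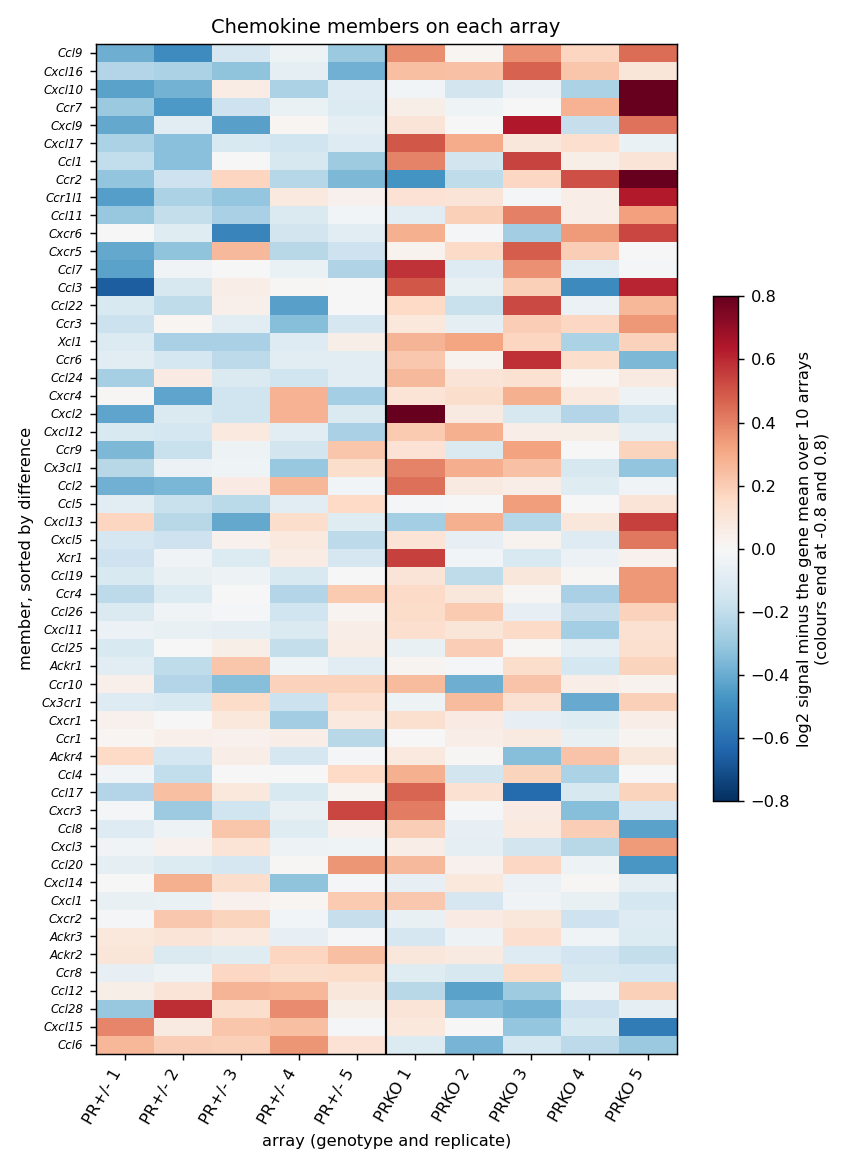
Log2 signal of each member (rows, sorted by difference) on each array (columns, PR+/- left and PRKO right of the line), as the deviation from the gene's mean over 10 arrays; red is higher and blue lower, and colours end at 0.8 either way. Cxcl16, Ccl9 and Ccl6 split by genotype, while Cxcl10, Ccr7 and Ccr2 are highest on PRKO replicate 5.

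Markers of the cells that make or receive chemokines were followed beside these results. For macrophages and monocytes, 0 of 12 markers rose and 1 fell (2 upward and 3 downward at an unadjusted limma p under 0.05). The fallen marker was Mertk, a receptor for the uptake of dead cells (-0.45 ± 0.092, adjusted p = 0.0106). Upward at the unadjusted p were Cd163 (0.32) and Lyz2 (0.23), and downward beside Mertk were Cd14 (-0.27) and C1qc (-0.17). Csf1r and Adgre1 had differences of -0.01. The Mertk call was lost with the interquartile range as a covariate (adjusted p = 0.133) and without both PRKO replicates 1 and 5 (0.0521). The list's mean signal was 6.27 to 6.35 in PR+/- and 6.23 to 6.38 in PRKO, and all 12 markers were above the olfactory guide. For 5 pan-leukocyte markers none passed (unadjusted p under 0.05 in 1), at 6.34 to 6.53 and 6.35 to 6.55. Neutrophil markers were dim, with 3 of 9 above the guide, and their mean was 3.63 to 3.82 in PR+/- and 3.74 to 4.03 in PRKO. Ngp, a neutrophil granule protein, was the member called (0.50 ± 0.12, adjusted p = 0.0259), a call kept in 12 of 20 alternatives. Its mean signals, 2.94 in PR+/- and 3.44 in PRKO, lay below the guide.

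T cell markers had 2 of 6 above the guide and means of 3.70 to 3.84 and 3.82 to 4.08, and dendritic cell markers 2 of 5 and means of 4.05 to 4.14 and 4.03 to 4.27, with none called in either list (unadjusted p under 0.05 in 1 gene of each). The mean of the mast cell markers was 4.03 to 4.13 in PR+/- and 4.17 to 4.28 in PRKO. That of 3 B cell markers was 3.15 to 3.19 and 3.24 to 3.45, so that neither mean overlapped between genotypes. The median differences of these lists were 0.09 and 0.17. For the olfactory genes the median difference was 0.13, and 89.5% were positive. Of the mast cell list 2 of 6 were above the guide, Kit was called higher (0.39 ± 0.10, adjusted p = 0.0476), and Cpa3 (-0.08) and Tpsb2 (-0.02) had differences of the opposite sign. No B cell marker was called in limma (1 upward at an unadjusted p under 0.05), and 1 of 3 was above the guide. Eosinophil markers gave 0 of 3 calls (0 also at an unadjusted p under 0.05 in limma), with means of 3.54 to 3.83 and 3.602 to 4.01. Kit kept its call in 10 of 22 alternatives, and it is also expressed by cells other than mast cells. Epithelial markers gave 0 of 6 calls (0 also at an unadjusted p under 0.05), and smooth muscle markers fell in 6 of 6, from a mean of 10.01 to 10.23 in PR+/- to 9.08 to 9.31 in PRKO. In blood endothelium 2 of 6 markers fell, Emcn (-0.53 ± 0.11, adjusted p = 0.00969) and Pecam1 (-0.27 ± 0.070, adjusted p = 0.0374). Of 4 fibroblast markers 1 fell, Pdgfra (-0.39 ± 0.097), while differences in that list ran up to 0.37 (1 upward and 1 downward at an unadjusted limma p under 0.05). Of 4 mesothelial markers 1 fell, Msln (-0.45 ± 0.10), with 0 upward and 2 downward at the unadjusted p. Over all genes, 3.87% were called lower. The part of any of these cell types in the changes of Cxcl16, Ccl9, Cxcl17 and Ccl6 was not tested. Without PR+/- replicate 4 and PRKO replicate 3, the arrays with the most ovarian signal, Cxcl16, Ccl9 and Ccl6 kept their calls and Cxcl17 did not (adjusted p = 0.0880).

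**Figure D5:**
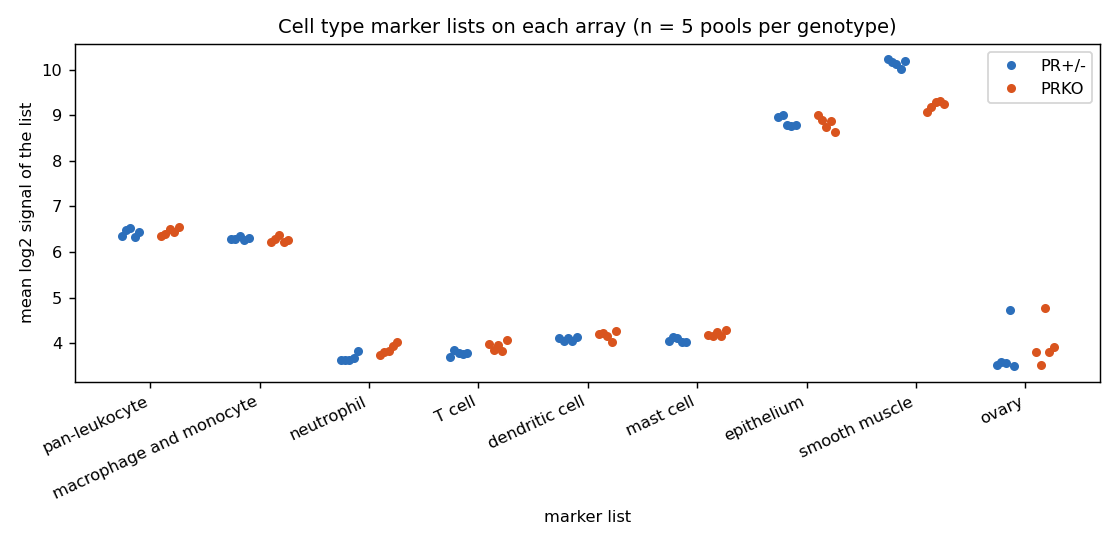
Mean log2 signal of 9 cell type marker lists (y axis) on each PR+/- and PRKO array (points, n = 5 pools per genotype). Macrophage and pan-leukocyte lists overlap between genotypes, the smooth muscle list is lower in all 5 PRKO pools, and the ovarian list is high on 1 array of each genotype.

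Genes that act with chemokines were counted from lists drawn up beside the set. Of 34 genes that carry receptor signals, 4 fell and 0 rose (2 upward and 8 downward at an unadjusted limma p under 0.05). By comparison, 3.87% of all genes, 4.18% of middle genes and 7.12% of bright genes were called lower. The fallen genes were Gng2, a G protein gamma subunit (-0.84 ± 0.11), Gnai1, an inhibitory G protein alpha subunit (-0.72 ± 0.080), Elmo1, which links receptors to Rac (-0.52 ± 0.090), and Rasgrp2, which activates Rap (-0.50 ± 0.12). The related subunits Gnai2 and Gnai3, which are the main ones of leukocytes, had differences of -0.16 and -0.10 and were not called. Elmo1 had a difference of -0.36 and lost its call with the interquartile range as a covariate (adjusted p = 0.117), and Rasgrp2 was called in 14 of 21 alternatives.

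Of 25 glycosaminoglycan carriers and enzymes that hold or trim chemokines, 4 fell and 0 rose (1 upward and 6 downward at an unadjusted limma p under 0.05), against the same shares called lower. The fallen genes here were Hspg2, the basement membrane proteoglycan perlecan (-0.58 ± 0.076), Hs3st1, a heparan sulfate sulfotransferase (-0.58 ± 0.10), and the glypicans Gpc3 (-0.56 ± 0.11) and Gpc1 (-0.42 ± 0.079). The calls of Gpc3, Hs3st1 and Gpc1 were lost with the interquartile range as a covariate, where Gpc3 had a difference of -0.31. Among 19 leukocyte adhesion genes, 2 rose and 2 fell, where 1.09% of all genes were called higher and 3.87% lower. At an unadjusted limma p under 0.05, 4 were higher and 3 lower. Vcam1, which captures leukocytes through integrins of the alpha 4 chain, rose by 0.48 ± 0.088 (adjusted p = 0.00513) and that chain, Itga4, by 0.34 ± 0.088, while Itgb1 and Pecam1 fell by 0.29 and 0.27. Vcam1 kept its call in 20 of 21 alternatives and the others in 8 to 10 of up to 22.

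NF-kB pathway genes, interferon response genes and other chemoattractants were counted in the same way. Over all genes, 1.09% were called higher and 3.87% lower. In the NF-kB pathway and its inducers, 1 of 30 rose, the interleukin 17 receptor gene Il17ra (0.44 ± 0.091, adjusted p = 0.0115), and none fell (unadjusted p under 0.05 in 4 upward and 4 downward). Il17ra was called in 19 of 22 alternatives, with the call lost under the interquartile range covariate (adjusted p = 0.117) and without PR+/- replicate 4 and PRKO replicate 3 (0.0567) or PRKO replicates 1 and 5 (0.0501). Of 23 interferon response genes, none rose in limma and 1 fell (1 upward and 3 downward at an unadjusted p under 0.05). The fallen gene was the interferon gamma receptor gene Ifngr1 (-0.35 ± 0.074, adjusted p = 0.0139). With the covariate its adjusted p was 0.0902. Ifit2 (-0.47 ± 0.13, adjusted p = 0.0521) and Ifngr2 (-0.27 ± 0.086, adjusted p = 0.0897) were the others downward, and Gbp3 (0.25) was upward at the unadjusted p. Of 18 chemoattractant genes outside the symbol rule, which include Pf4, Ppbp, Ccrl2 and Mif, none was called in limma (2 higher and 2 lower at an unadjusted p under 0.05). Mif, a macrophage migration factor, came nearest, with a difference of -0.53 ± 0.14 and an adjusted p of 0.0507.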

How the data were processed

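Expression was measured in 10 pools of mouse oviducts, 5 per genotype. The log2 values are those deposited by the authors, 1 per probe set and array (35557 rows, 1.09 to 13.58). The log2 scale was inferred from their range. Per the submitters' processing notes, Partek was used. How it corrected background and normalized, and in which version, is not given in the sources used here. Values were not normalized again and no dim gene was removed.

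Probe sets were named through the platform's annotation table. All 56 members' symbols were found by gene ID in a RefSeq table of GRCm38.p6. PRKO was set against PR+/- in limma 3.58.1 (R 4.3.3), fitted over 19938 genes with genotype as the term (8 residual and 6.08 prior degrees of freedom). A value after ± is an SE where it follows a difference and an SD where so marked, and intervals are 95%. P-values measure the spread between pools, and the number of arrays limits precision. The procedure was tested on simulated data.

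The members and lists were chosen with earlier results of these data known. Genes were named where a member was called, had an unadjusted p under 0.05, was among the brightest 6 ligands or 4 receptors or the 3 largest differences each way, or was a cognate receptor, and where a gene of a pathway list was called. Other members are given by their difference, chosen by family. The 22 alternatives changed the normalization, centring, filter, probe set choice, moderation, weights, block or covariate, or left out arrays.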

Additional observations from a re-analysis of the deposited data

Results flagged for a closer look

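In a few members, or genes of their signalling list, 1 pool lay apart from the other 4 of its genotype by more than Dixon's 95% limit of 0.71 of the group's range. The check ran over 45 named genes, as 90 groups of 5 values, and chance alone passes about 1 in 20 of them. Members outside these genes, among them Cxcl2, Xcr1 and Cxcr1, were not checked. Cxcl10 was 6.37 on PRKO replicate 5 against 4.55 to 4.78 on the other PRKO arrays, and Ccr1l1, a dim Ccr1-like gene, was 4.03 there against 3.38 to 3.51. Elmo1 was 5.21 on the same array against 5.55 to 5.68. Xcl1 was 3.26 on PRKO replicate 4 against 3.68 to 3.82, Cxcr6 was 2.67 on PR+/- replicate 3 against 3.06 to 3.20, and Ccr1 was 2.76 on PR+/- replicate 5 against 2.99 to 3.03.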

How the results depend on the processing

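Over 22 alternatives, Cxcl16 and Ccl6 kept their direction and call in all, Ccl9 in 20 and Cxcl17 in 10. The count of members called higher (3) was 1 with the interquartile range as a covariate, and that of members called lower (1) was 2 after quantile or cyclic loess normalization, with array weights, and without both PRKO replicates 1 and 5. With 1 array left out, 2 to 5 members were called higher (5 without PRKO replicate 4, where Ccl11 and Xcl1 were added) and 1 or 2 lower (2 without PRKO replicate 5). Over all genes, 217 higher and 771 lower became 142 higher with median centring, 66 and 282 with the covariate, 73 and 489 without both PR+/- replicate 4 and PRKO replicate 3, and 141 higher without both PRKO replicates 1 and 5. With 1 array left out they were 84 (without PR+/- replicate 1) to 330 (without PRKO replicate 4) higher and 497 (without PR+/- replicate 1) to 882 (without PRKO replicate 2) lower. The cause was not tested, except that fits with fewer arrays have fewer samples.

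Replicate numbers were not used as pairs in the main fit, and whether they pair the samples is not settled. Deviations of same-numbered arrays correlated between -0.013 and 0.16, above 0.1 in 4 of 5 pairs. Of the 5 arrays, 3 matched their own number best. With the replicate block, 6 members were called higher and 2 lower. Ccl11, Ccl1, Ccr7, Cxcr5 and Cxcl15 were then called and Cxcl17 was not (adjusted p = 0.0712).

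Differences near 0 turned sign. Cxcl14 became 0.0073 (quantile), 0.010 (cyclic loess) and 0.056 (covariate), and lay between -0.12 and 0.030 with 1 array left out (positive without PR+/- replicate 2). Ccr1 became -0.074 (quantile) and -0.070 (cyclic loess), and lay between -0.018 (without PR+/- replicate 5) and 0.053. Ccr10 became -0.12 (covariate) and -0.0031 (without both PRKO replicates 1 and 5), and lay between -0.010 (without PR+/- replicate 3) and 0.17. Cx3cr1 became -0.095 (covariate) and -0.014 (without both PR+/- replicate 4 and PRKO replicate 3), and lay between -0.0096 (without PRKO replicate 2) and 0.15, and Cxcl10 became -0.24 (covariate). Most members are dim, and the table holds no detection calls, so absence of a transcript cannot be read from it.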

Other observations

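The 7 rows annotated to several copies of Ccl21 or Ccl27 at once stood outside the comparison. Ccl21 leads Ccr7-bearing cells into lymphatic vessels, and Ccl27 attracts Ccr10-bearing T cells. The 4 Ccl21 rows, each annotated to 7 symbols, held identical values on every array, so they count as 1 measurement. They gave 6.45, 5.76, 5.68, 5.78 and 5.79 in PR+/- replicates 1 to 5 and 5.57, 5.67, 5.80, 5.62 and 5.86 in PRKO replicates 1 to 5, with overlapping groups and a difference of -0.19 ± 0.13. PR+/- replicate 1 stood above all other arrays. The 3 Ccl27 rows, of which 2 were identical, had differences of 0.02 and 0.06, with PRKO replicate 4 the lowest array on each (4.74 and 5.33). Signals of single copies cannot be separated on these rows.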
